A study of Homo sapiens with 12 samples.

Results

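The 10 genes described here encode subunits of the transcription factor AP-1 and products of the immediate-early response. They were chosen by gene symbol from the 23615 genes of the deposited tables: JUN, JUNB, JUND, FOS, FOSL1, FOSL2, ATF3, IER2, IER3 and IER5. Measured values were not used in the rule. All 10 were listed in both tables.

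The study sequenced polyadenylated RNA from HEK293T, an established kidney line that was transformed with adenovirus DNA and also carries the SV40 large T antigen. Cells received CP25 at 2 µM, which the labels call an inhibitor of the decapping enzyme Dcp2, or the storage buffer of the peptide as vehicle, in both cases for 18 h. Actinomycin D, which stops transcription, followed at 5 µg/mL. The 4 groups were CP25 with 2 h of actinomycin D, vehicle with 2 h of actinomycin D, CP25 at 0 h and vehicle at 0 h, with 3 libraries in each. The labels name no stimulus that would induce these genes, and the values at 0 h follow 18 h of CP25 or vehicle. Nothing in the labels makes the 3 libraries separate cultures. A p-value here therefore reflects the spread between libraries, and that spread may be technical.

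AP-1 is a dimer of basic leucine zipper proteins. Jun proteins pair with one another or with Fos proteins, Fos proteins need a Jun partner, and ATF3 can pair with Jun proteins or with itself. Immediate-early genes are switched on by growth factors or stress without new protein synthesis, and their mRNAs are known for rapid turnover. Many hold AU-rich elements in the 3′ UTR, whose core is the pentamer AUUUA, and these recruit proteins that speed deadenylation. Decapping, the step carried out by Dcp2, removes the 5′ cap before the body of an mRNA is degraded from the 5′ end.

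The AU-rich stretches of the 3′ UTRs are shown because the members differ in how many pentamers they carry. Each is the window of 30 bases with the most pentamers in the GENCODE 29 transcript of that member (GRCh38), written 5′ to 3′ in the sense of the mRNA as DNA letters, with each ATTTA in capitals.
JUN, chr1:58780951-58780980, minus strand: ATTTAtaatgttagtagaaattttacaata
JUNB, chr19:12793048-12793077, plus strand: atattgaatataatatatttgtgtATTTAa
JUND, chr19:18279986-18280015, minus strand: tATTTAtgtttctactcgggaacaaacgtt
FOS, chr14:75282051-75282080, plus strand: gttttattgtgtttttaATTTATTTAttaa
FOSL2, chr2:28416355-28416384, plus strand: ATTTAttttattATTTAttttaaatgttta
ATF3, chr1:212620691-212620720, plus strand: ttttctgtaagagaaaatattacttATTTA
IER3, chr6:30743651-30743680, minus strand: tcctaattaatATTTAtatgtATTTAtgta
IER5, chr1:181092452-181092481, plus strand: tttATTTATTTATTTATTTAattataaaaa

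IER5 carried the most pentamers, 10 in a 3′ UTR of 3013 bases, 4 of them overlapping end to end in the stretch shown. FOSL2 had 9 in 4864 bases, IER3 had 6 in 737 bases and FOS had 5 in 806 bases. JUN and ATF3 had 3 each, JUNB had 2, and JUND and FOSL1 had 1 each. IER2 had none in 1050 bases, whereas 76.8% of 1640 expressed genes with a 3′ UTR of similar length (within 25%) held at least 1. IER3 lay at the other end: only 2.94% of 1495 genes with a UTR of similar length held at least as many. This share was 8.4% for FOS, 24.9% for JUNB, 25.5% for IER5, 42.9% for ATF3 and 45.6% for JUN. It was 60.2% for FOSL2, 62.3% for FOSL1 and 62.85% for JUND. The 9 pentamers of FOSL2 lay below the median of 11 for genes of its UTR length. Over 10757 expressed genes with UTRs of any length the median was 2 and 71.8% held at least 1. The longer motif TTATTTATT, which contains the pentamer, was found 3 times in IER5, once in FOS and once in FOSL2, and in 8.76% of these 10757 genes. Among genes with a UTR of similar length, 13.4% held it for IER5, 4.54% for FOS and 21.6% for FOSL2. Both motifs were searched on the sense strand. A match is a description of the letters, and no match says only that they are not in this annotated UTR.

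Values are FPKM, fragments per kilobase of transcript and per 10⁶ mapped fragments, as the authors deposited them. Depth, estimated from the lowest values, lay between 22.3 and 29.5 × 10⁶ fragments in the 2 h libraries and between 13.2 and 22.4 × 10⁶ in those taken at 0 h. Libraries of 1 group correlated at 0.971 to 0.989 across genes. The markers fixed for this line (VIM, KRT8, KRT18, NEFM, PAX2 and CDH2) all averaged at least 1 FPKM. Of 8 markers of blood cells, endothelium, fibroblasts and hepatocytes, 1 did (COL1A1), and PTPRC, CD3E and CDH5 lay close to 0. The 2 h and 0 h values stand in separate tables that may have been scaled separately, and FPKM is a share of a library, so levels at 2 h against 0 h are described without a test. The median gene stood at 87.8% of its 0 h level in CP25 and at 86.6% in vehicle.

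Among the Jun genes, JUN was the most abundant member before the block and one of those with least left after it. JUN encodes c-Jun, the founding subunit of AP-1. Its FPKM in libraries 1 to 3 was 5.59, 2.98 and 5.47 in CP25 at 2 h and 4.20, 2.79 and 7.51 in vehicle at 2 h. At 0 h it was 47.4, 61.9 and 44.9 in CP25 and 40.8, 58.5 and 45.0 in vehicle. Every 2 h library lay far below every 0 h library, and the CP25 and vehicle libraries overlapped at both times. JUN stood at 9.11% of its 0 h level in CP25 and at 10.1% in vehicle. Of the 12179 genes that averaged 1 FPKM or more, only 59 had less left than JUN in CP25 and 62 in vehicle.

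JUNB, which encodes a Jun protein that can dampen c-Jun activity, was present at a lower level throughout. It had 1.03, 0.369 and 0.889 FPKM in CP25 at 2 h, and 0.787, 0.421 and 0.613 FPKM in vehicle at 2 h. The 0 h values were 4.97, 6.04 and 5.32 FPKM in CP25 and 4.50, 5.87 and 6.64 FPKM in vehicle. The times did not overlap, and the level left was 14.0% in CP25 and 10.7% in vehicle.

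JUND encodes the Jun protein that is widely expressed in resting cells. Its FPKM was 8.66, 6.64 and 10.2 in CP25 at 2 h and 7.01, 7.28 and 11.1 in vehicle at 2 h. At 0 h it was 17.9, 19.2 and 19.6 in CP25 and 15.4, 18.9 and 20.6 in vehicle. The times did not overlap here either, but 44.8% was left in CP25 and 46.3% in vehicle, several times the share left for JUN or JUNB.

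The make-up of Jun mRNA did not overlap between the times. JUN made up 29.9 to 36.6% of the summed FPKM of JUN, JUNB and JUND in CP25 at 2 h and 26.6 to 39.0% in vehicle at 2 h, against 64.3 to 71.0% in CP25 at 0 h and 62.3 to 70.3% in vehicle at 0 h. JUND made up 56.7 to 66.4% in CP25 at 2 h and 57.8 to 69.4% in vehicle at 2 h, against 22.1 to 28.1% in CP25 at 0 h and 22.7 to 28.5% in vehicle at 0 h. JUND thus took the place of JUN as the largest Jun transcript in all 6 libraries of the 2 h table. The JUN to JUND ratio of FPKM averaged 0.544 ± 0.0987 in CP25 and 0.553 ± 0.151 in vehicle at 2 h, and 2.72 ± 0.470 in CP25 and 2.64 ± 0.455 in vehicle at 0 h (SD, n = 3 each). The 3 Jun transcripts together summed to 13.9 ± 3.46 FPKM in CP25 and 13.9 ± 4.65 FPKM in vehicle at 2 h, and to 75.8 ± 9.90 FPKM in CP25 and 72.1 ± 11.3 FPKM in vehicle at 0 h.

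The Fos genes were scarce in these cells, for which the labels name no stimulus. FOS encodes c-Fos, the usual partner of c-Jun after stimulation, and no library exceeded 0.459 FPKM, which stands for an estimated 2.02 to 19.5 fragments per library. FOS had 0.0492, 0.0539 and 0.0387 FPKM in CP25 at 2 h and 0.117, 0.0317 and 0.0423 FPKM in vehicle at 2 h. At 0 h it had 0.0935, 0.252 and 0.0445 FPKM in CP25 and 0.178, 0.459 and 0.118 FPKM in vehicle. The second library was the highest at 0 h in both treatments, and the CP25 libraries of the 2 times overlapped. FOSL1, which encodes Fra-1, rested on 1.04 to 8.46 fragments per library, ranged from 0.0238 to 0.249 FPKM over the 12 libraries, and overlapped between the times in both treatments.

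FOSL2, which encodes Fra-2, was the most abundant of the 3 Fos members. It had 0.248, 0.159 and 0.231 FPKM in CP25 at 2 h, and 0.262, 0.231 and 0.386 FPKM in vehicle at 2 h. The 0 h values were 0.824, 1.11 and 0.962 FPKM in CP25 and 0.721, 1.18 and 0.827 FPKM in vehicle. The times did not overlap, on an estimated 28.0 to 167 fragments per library, and 22.0% was left in CP25 against 32.3% in vehicle. FOS, FOSL1 and FOSL2 all averaged below 1 FPKM over the 12 libraries and took no part in the tests. Their sum averaged 0.324 ± 0.0755 FPKM in CP25 and 0.460 ± 0.101 FPKM in vehicle at 2 h, and 1.28 ± 0.151 FPKM in CP25 and 1.28 ± 0.425 FPKM in vehicle at 0 h (SD, n = 3 each).

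**Figure D1:**
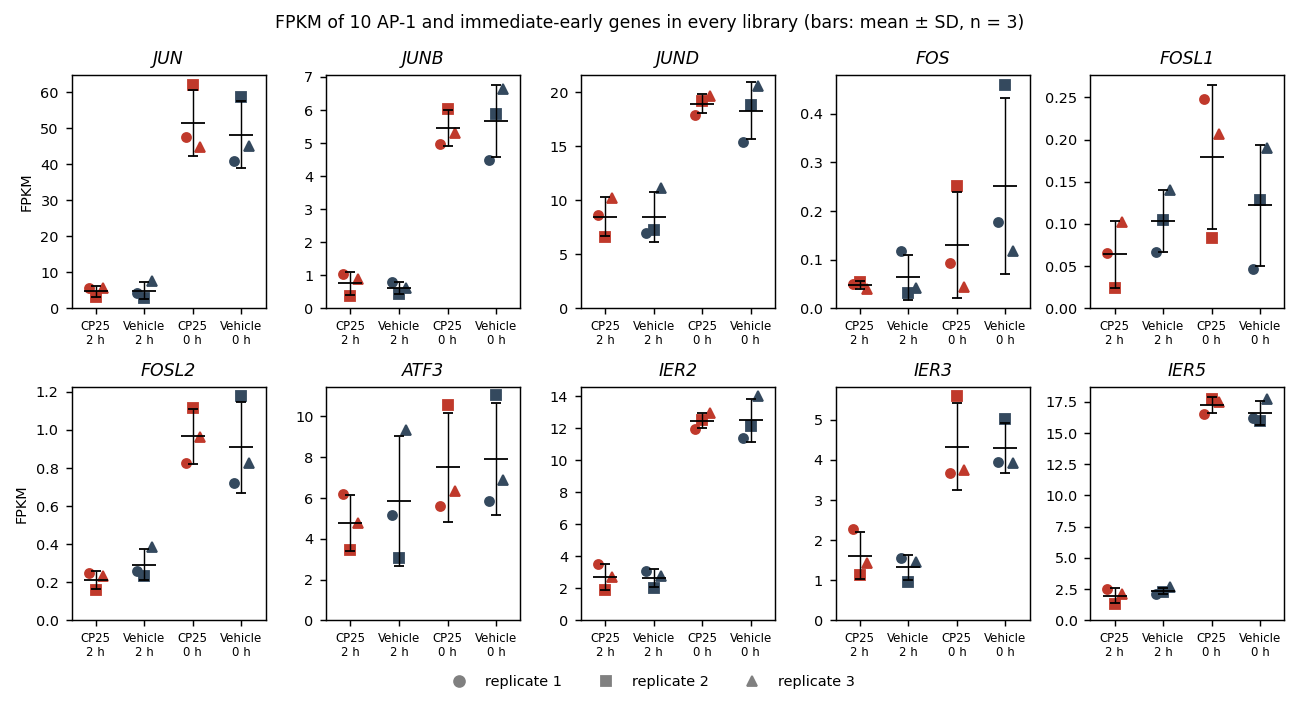
FPKM of the 10 members in every library, 1 panel per gene with its own axis from 0. Points are single libraries, grouped by treatment and hours of actinomycin D, and bars are the mean ± SD (n = 3). JUN is the highest member at 0 h and lies below JUND in every library at 2 h. The libraries of ATF3 and FOSL1 overlap between the times in both treatments, and those of FOS in CP25.

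ATF3, a stress-induced factor that can repress transcription as a homodimer, was the expressed member with the most left. It had 6.19, 3.44 and 4.76 FPKM in CP25 at 2 h, and 5.19, 3.05 and 9.35 FPKM in vehicle at 2 h. The 0 h values were 5.59, 10.6 and 6.36 FPKM in CP25 and 5.87, 11.0 and 6.86 FPKM in vehicle. The times overlapped in both treatments. The level left was 63.9% in CP25 and 74.0% in vehicle, and leaving out 1 library at a time moved it between 54.6 and 80.3% in CP25 and between 52.0 and 92.1% in vehicle.

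The IER genes encode short-lived response proteins. IER2 encodes a nuclear protein, IER3 a stress-inducible protein that modulates cell survival, and IER5 a nuclear protein known for acting on heat shock factor HSF1. IER2 had 3.53, 1.92 and 2.71 FPKM in CP25 at 2 h and 3.12, 2.02 and 2.76 FPKM in vehicle at 2 h, against 12, 12.5 and 12.9 FPKM in CP25 at 0 h and 11.4, 12.1 and 14.0 FPKM in vehicle at 0 h. Its level left was 21.8% in CP25 and 21.0% in vehicle, and its annotated 3′ UTR held no pentamer.

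IER5 had 2.54, 1.32 and 2.12 FPKM in CP25 at 2 h and 2.14, 2.28 and 2.65 FPKM in vehicle at 2 h, against 16.5, 17.7 and 17.5 FPKM in CP25 at 0 h and 16.2, 16.0 and 17.7 FPKM in vehicle at 0 h. This left 11.6% in CP25 and 14.2% in vehicle. IER3 had 2.28, 1.13 and 1.44 FPKM in CP25 at 2 h and 1.55, 0.969 and 1.45 FPKM in vehicle at 2 h, against 3.66, 5.59 and 3.75 FPKM in CP25 at 0 h and 3.95, 5.02 and 3.91 FPKM in vehicle at 0 h. This left 37.3% in CP25 and 30.8% in vehicle. For none of these IER genes did a 2 h library reach a 0 h library.

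Set against all genes, the members stood among those with little left. Of the 7 members that averaged 1 FPKM or more (JUN, JUNB, JUND, ATF3, IER2, IER3 and IER5), 6 stood below 50% in CP25 and 6 in vehicle, where 11.7% of the 12179 genes did so in CP25 and 12.1% in vehicle. JUN, JUNB, IER2 and IER5 stood below 25% in both treatments, where 2.40% of genes did in CP25 and 2.51% in vehicle. Of these, JUNB passed the filter only through its 0 h libraries. It averaged 0.762 FPKM in CP25 and 0.607 FPKM in vehicle at 2 h. The median of the 7 members was 21.8% in CP25 and 21.0% in vehicle. Of these 7, all except ATF3 had every 2 h library below every 0 h library of the same treatment, which 44% of genes showed in CP25 and 46% in vehicle, so this count alone sets them little apart. When each library was scaled to its own median, all genes moved up by 0.35 (CP25) and 0.37 (vehicle) on the log2 scale. JUND then stood at 57.3% in CP25 and 59.9% in vehicle, leaving 5 members below 50% in each treatment, where 6.58% of genes were in CP25 and 6.53% in vehicle.

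**Figure D2:**
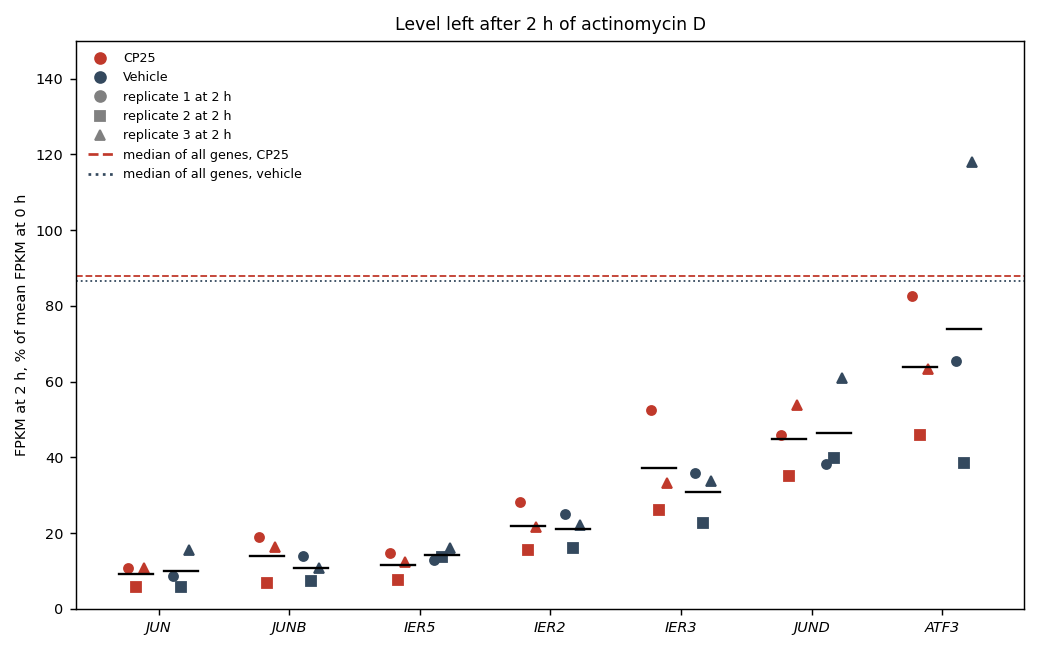
Level left at 2 h for each of the 7 members that averaged 1 FPKM or more, as a percent of the mean FPKM of the 0 h libraries of the same treatment. FOS, FOSL1 and FOSL2 are not shown. Points are single 2 h libraries, short lines their mean, and the dashed and dotted lines the median of 12179 genes (87.8% in CP25, 86.6% in vehicle). JUN, JUNB and IER5 lie lowest in vehicle, and the libraries of ATF3 spread widely.

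At 0 h, the order of levels in vehicle was JUN, JUND, IER5, IER2, ATF3, JUNB, IER3, FOSL2, FOS and FOSL1. In CP25 it was the same except that FOSL1 stood above FOS. The vehicle libraries of JUND and IER5, of ATF3 and JUNB, of JUNB and IER3, and of FOS and FOSL1 overlapped. Within a library, however, ATF3 lay above JUNB and JUNB above IER3 in 6 of 6 libraries at 0 h, JUND above IER5 in 5 of 6, and FOS above FOSL1 in 3 of 6. In vehicle at 2 h, the order of the expressed members was JUND, ATF3, JUN, IER2, IER5, IER3 and JUNB, and it was the same in CP25 at 2 h. Neighbours from ATF3 to IER5 in that order overlapped in both treatments, and within a library ATF3 lay above JUN in 5 of 6, JUN above IER2 in 6 of 6 and IER2 above IER5 in 5 of 6. JUNB lay below every library of IER3 of the same treatment. IER5 lay above every library of IER2 at 0 h, whereas at 2 h the libraries of both genes overlapped.

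Whether members differed from each other in their change was tested on the log2 ratio of 1 member to another within a library, computed from FPKM + 1, which limits the influence of how each table was scaled. Time labels were permuted within each treatment (exact, two-sided, 400 labellings, smallest p 0.005). Of 21 pairs, 19 passed after Benjamini-Hochberg adjustment over the pairs. Pairs of other genes were not tested, so this count does not set the members apart from other genes. On this scale, JUN fell further than each of the other 6 members. Its log2 change less that of JUND was -2.12 (exact permutation p = 0.005, adjusted p = 0.00583), with -2.14 in CP25 and -2.09 in vehicle. Its difference was -0.67 against IER5, the nearest to it on this scale, at the same p. With 1 added to each value, a scarce gene shows a smaller log2 change than an abundant one with the same level left. By level left, JUNB was nearest to JUN in vehicle (10.7 against 10.1%) and IER5 in CP25 (11.6 against 9.11%). IER2 differed from IER3 by -0.78 and from IER5 by 0.62, so the 3 IER genes could be told apart.

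JUND differed from ATF3 by -0.58 (exact permutation adjusted p = 0.0276), and this call was lost when any of 7 single libraries was left out and when replicate numbers were kept as blocks (adjusted p = 0.104). The pairs JUNB and IER2 (-0.08, exact permutation adjusted p = 0.247) and JUND and IER3 (0.05, exact permutation p = 0.77) did not pass. Pairs with JUNB depended on the pseudocount, because JUNB lay below 1 FPKM in 5 of the 6 libraries at 2 h. With a pseudocount of 0.1, JUNB minus IER2 was -0.70 (exact permutation adjusted p = 0.00656), JUNB minus IER5 was 0.02 in place of 0.54 (adjusted p = 0.89), and JUN minus JUNB was -0.52 in place of -1.22 (adjusted p = 0.0442).

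**Figure D3:**
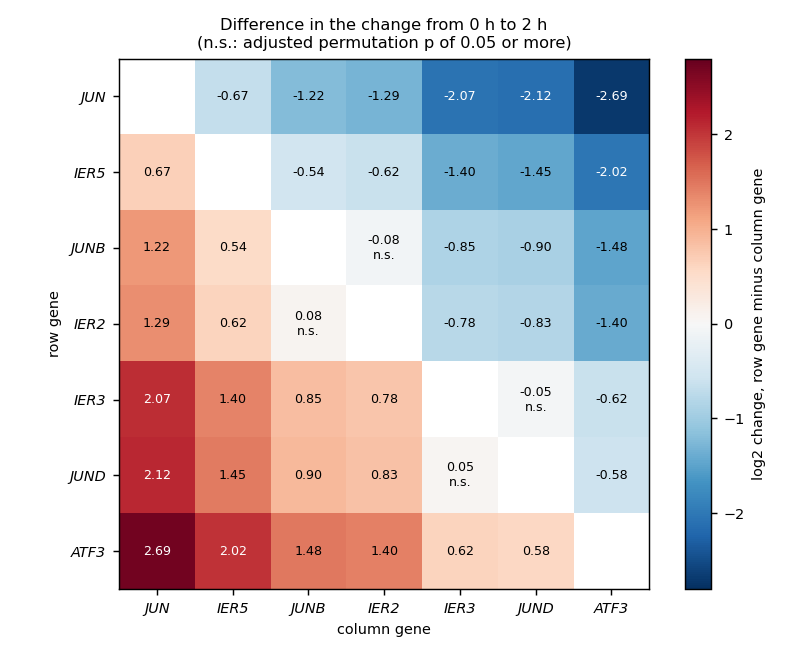
Difference between 2 members in the log2 change of FPKM + 1 from 0 h to 2 h, row member minus column member, over the 12 libraries. Negative values mean that the row member fell further. Pairs that did not pass the exact permutation test after adjustment over 21 pairs (JUNB and IER2, JUND and IER3) are marked n.s.

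The number of pentamers did not order the members by level left. IER5, with 10, and JUN, with 3, stood at 14.2 and 10.1% in vehicle, whereas IER3, with 6, stood at 30.8%. IER2, with no pentamer, stood at 21.0%, below JUND, which had 1 pentamer and stood at 46.3%. ATF3 had as many pentamers as JUN and stood at 74.0%. The relation was not tested, since 7 members are too few and were not a random draw.

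**Figure D4:**
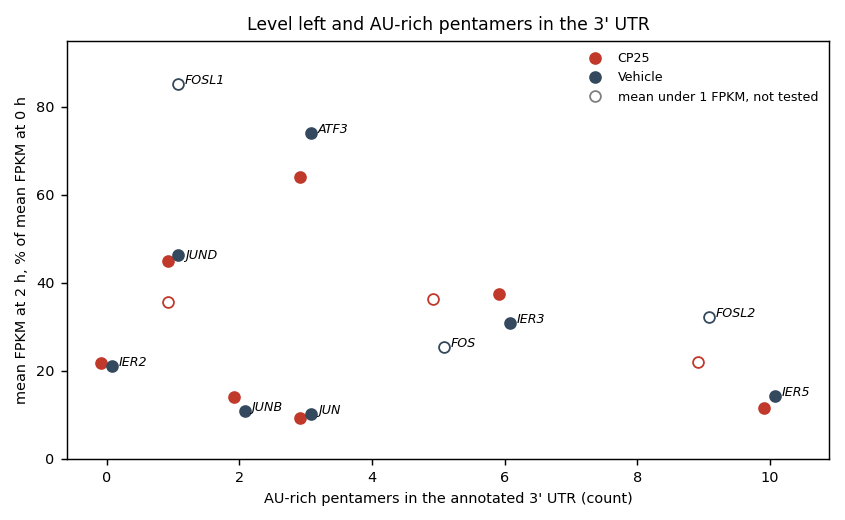
Level left at 2 h, in percent of the 0 h level, against the number of AU-rich pentamers in the annotated 3′ UTR, for CP25 and vehicle. Open symbols are members with a mean below 1 FPKM, which rest on few fragments. IER2 has 0 pentamers and stands at 21.8% in CP25 and 21.0% in vehicle. FOSL2, an open symbol, has 9 and stands at 22.0% in CP25 and 32.3% in vehicle.

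No member passed the test of CP25 against vehicle. At 0 h, limma on log2(FPKM + 1) called 0 of 7 members tested, against 0% of the 12361 genes after adjustment, and 0 members at an unadjusted p under 0.05, where 88 genes (0.712%) were. At 2 h, limma called 0 of 6 members (JUNB lay below 1 FPKM there), against 0.00852% of 11741 genes, and 0 members at an unadjusted p under 0.05, where 87 genes (0.741%) were. Both unadjusted shares lay far below 0.05 of the genes tested, so this fit, which leaves out the replicate number, was strict. That 0 members passed it therefore says little. The authors' deposited p-values, adjusted over the same genes, called 0 genes at either time. The CP25 and vehicle libraries overlapped for all 10 members at both times. The share of all genes that overlapped was not counted, so this does not set the members apart.

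The intervals, first from the fit without replicate blocks, say how large a difference these libraries could have held. At 0 h the CP25 to vehicle fold of FPKM + 1 was 1.00 for IER2 (95% interval 0.878 to 1.14), 1.04 for IER5 (0.937 to 1.15) and 1.04 for JUND (0.879 to 1.23). It was 1.07 for JUN (0.820 to 1.39), 0.973 for JUNB (0.787 to 1.20), 0.999 for IER3 (0.777 to 1.28) and 0.952 for ATF3 (0.618 to 1.47). At 2 h it was 1.00 for JUN (0.609 to 1.66), 1.01 for JUND (0.739 to 1.38) and 0.892 for ATF3 (0.526 to 1.51). IER2 had a fold of 1.02 (0.759 to 1.36), IER3 1.12 (0.836 to 1.49) and IER5 0.879 (0.678 to 1.14) at 2 h.

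Whether CP25 changed the fall itself is the difference of the CP25 effects, 2 h minus 0 h, in a fit of all 12 libraries. limma called 0 of 7 members and 0% of 12179 genes, and 0 members at an unadjusted p under 0.05, where 153 genes (1.26%) were. The log2 difference was -0.09 for JUN (95% interval -0.94 to 0.76), 0.16 for JUNB (-0.34 to 0.66), -0.04 for JUND (-0.57 to 0.48) and -0.09 for ATF3 (-1.12 to 0.93). For IER2 it was 0.02 (-0.44 to 0.49), for IER3 0.16 (-0.40 to 0.71) and for IER5 -0.24 (-0.63 to 0.16). With all libraries, every interval held 0. The value for IER5 rested on single libraries: it was -0.37 (-0.72 to -0.019) without the first CP25 library at 2 h, with limma's unadjusted p = 0.041 and adjusted p = 1.00, and -0.063 (-0.32 to 0.20) without the second. As a fold of FPKM + 1, the interval ran from 0.736 to 1.40 for IER2, from 0.675 to 1.39 for JUND and from 0.460 to 1.91 for ATF3. Adding the replicate number as a block raised the genes at limma's unadjusted p under 0.05 from 88 to 857 at 0 h. At 2 h it raised them from 87 to 813, and for the difference of the CP25 effects from 153 to 1283. The 1.26% without the block also lay below 0.05 of the genes. limma again called 0 members with the block, and 0 members were at its unadjusted p under 0.05. With this block the interval ran from 0.896 to 1.15 for IER2, from 0.803 to 1.17 for JUND and from 0.627 to 1.40 for ATF3. These bounds are the sizes of difference that the libraries allow, and a p that misses the threshold does not show that the fall was alike with and without CP25.

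**Figure D5:**
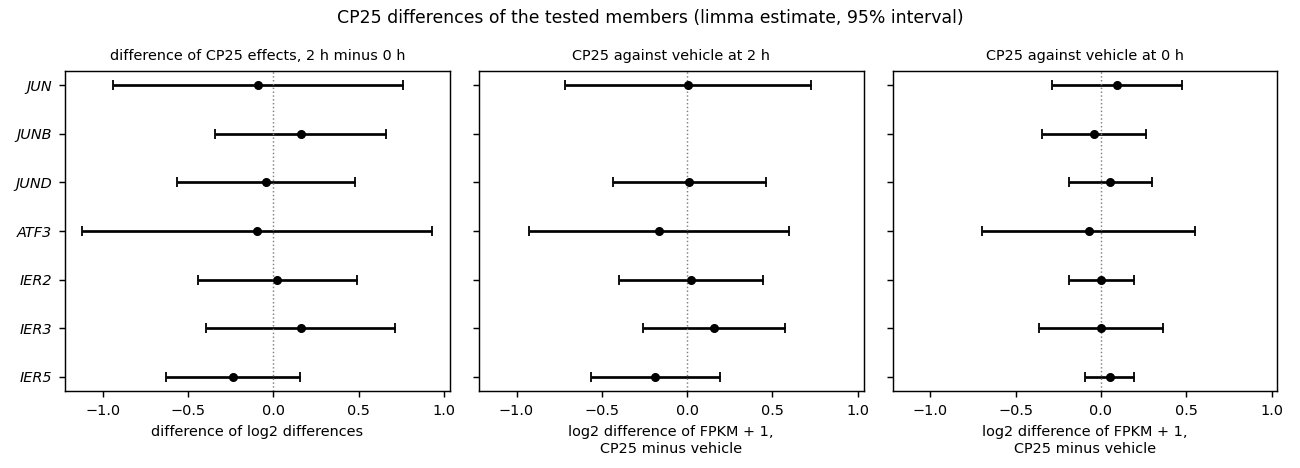
log2 difference of FPKM + 1, CP25 minus vehicle, for the members tested at 2 h and at 0 h and for the difference of the CP25 effects. Points are limma estimates and bars 95% intervals. JUNB has no point at 2 h because it averaged below 1 FPKM there, and every interval crosses 0.

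The second library of each group stood apart for several members. It was the highest of its group at 0 h in both treatments for JUN, FOS, FOSL2, ATF3 and IER3. Among the 7 expressed members this was 3, where 16.5% of all genes showed it. It was the lowest of its group at 2 h in both treatments for JUN, JUNB, FOSL2, ATF3, IER2 and IER3. Among the 7 expressed members this was 5, where 26.5% of genes showed it. JUN, ATF3 and IER3 showed both, where 7.92% of genes did. The labels do not say that a number marks a shared culture or day, and the part of this in the level left was not tested beyond leaving out single libraries. Without each library in turn, JUN stood at 8.22 to 10.8% in CP25 and at 7.27 to 12.2% in vehicle.

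The other immediate-early genes are set beside the members here without a test. Of 22 listed, 13 averaged at least 1 FPKM, and 11 of these stood below 50% in CP25 and 12 in vehicle, where 11.7% of all genes did in CP25 and 12.1% in vehicle, with medians of 18.8% in CP25 and 18.4% in vehicle. DUSP1, a phosphatase that inactivates MAP kinases, had the least left, at 5.92% in CP25 and 5.63% in vehicle. Its mean at 2 h was only 0.38 FPKM in CP25 and 0.32 FPKM in vehicle. DUSP1, ZFP36, CYR61, GADD45B and SGK1 passed the filter only through their 0 h libraries. All of them count among the genes below 50% and enter the medians. MYC, the growth regulator, stood at 10.0% in CP25 and 9.83% in vehicle, next to JUN. NR4A1, an orphan nuclear receptor, had the most left in vehicle, at 51.9% in CP25 and 69.8% in vehicle. EGR1, a zinc finger factor that is induced together with FOS, averaged 0.536 FPKM in CP25 and 0.538 FPKM in vehicle at 0 h and was too scarce for the tests.

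The same description was made for genes whose products act with AP-1 or upstream of it. Of 10 other AP-1 subunits and bZIP partners, 6 averaged at least 1 FPKM, and 1 of these stood below 50% in CP25 and 2 in vehicle. They ranged in vehicle from MAFK, a small Maf protein (28.8% in CP25, 35.6% in vehicle), to BATF3, which pairs with Jun proteins (91.0% in CP25, 96.7% in vehicle). MAFK, the 1 gene below 50% in CP25, passed the filter only through its 0 h libraries. It averaged 0.724 FPKM in CP25 and 0.885 FPKM in vehicle at 2 h. Of the 19 kinases and factors that signal to these genes, all expressed, 2 stood below 50% in CP25 and 3 in vehicle, and their median was 90.7% in CP25 and 89.7% in vehicle. That count is close to the share of all genes (11.7% in CP25, 12.1% in vehicle), as is the median to that of all genes. MKL1, a coactivator of SRF, had the least left in vehicle (33.8%), and MAPK9, which encodes a kinase that phosphorylates c-Jun, had the most (114%).

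Of 10 genes known as AP-1 targets, 4 were expressed and 0 stood below 50% in either treatment. Of all genes, 11.7% did in CP25 and 12.1% in vehicle, so 0 of 4 sets them little apart. VEGFA, an angiogenic factor, stood at 63.0% in CP25 and 55.3% in vehicle, and TIMP1, an inhibitor of metalloproteinases, at 111% in CP25 and 118% in vehicle. In these 4 lists limma called 0 genes in the comparisons of CP25 with vehicle and in the difference of the CP25 effects. Of all genes it called 0% at 0 h, 0.00852% at 2 h and 0% for the difference.

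The genes whose pattern over the 12 libraries was most like that of a member were found by Pearson correlation of log2(FPKM + 1), each library centred on its median, among 8858 genes that averaged 5 FPKM or more. For JUN they were MYC (0.997), BTG1 (0.996) and RPP38 (0.994). For IER2 they were SOX4 (0.995), RPP38 (0.992) and SERTAD3 (0.992). For JUND they were POP7 (0.978), LRFN4 (0.978) and JMJD6 (0.970). The libraries fall into the 2 times, so a high value mostly says that a gene shared the difference between the times.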

How the data were processed

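Poly(A) RNA libraries were grouped by treatment and time from their labels. The submitters' processing notes name Bowtie2 2.2.3, Trimmomatic 0.36, CASAVA 1.8.2 and the hg19 build. How FPKM was computed, and with which annotation, is not given in the sources used here. Deposited by the authors were FPKM per library, in 1 table per time, and a p-value per gene for CP25 against vehicle, which was taken as unadjusted and used only as an alternative. No counts were given, so depth was estimated from the FPKM step that equals 1 fragment.

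Here, log2(FPKM + 1) of genes averaging at least 1 FPKM was fitted with limma 3.58.1 (R 4.3.3) with variances moderated along a trend, and p-values were adjusted after Benjamini and Hochberg at 0.05. The steps were tested on simulated data. A total of 4 rows whose symbols had turned into dates and were duplicated were left out. Level left is each 2 h library as a percent of the 0 h mean of its treatment. Pairs of members were compared by exact permutation in Python 3.11.15. The 3′ UTR sequences came from GENCODE 29 (GRCh38); no coordinates were converted. The members, lists and tests were chosen with earlier results of these data known. The text names all 10 members, MYC and EGR1, the genes with the lowest and highest level left in vehicle in each list, and the 3 genes most like JUN, IER2 and JUND.

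Same-numbered CP25 and vehicle libraries deviated together at 2 h (correlations 0.354, 0.447 and 0.149) and less so at 0 h (0.260, -0.0111 and 0.118). Alternatives were another pseudocount, other filters, centring, quantile normalization, a replicate block, the authors' p-values and leaving out each library.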

Additional observations from a re-analysis of the deposited data

How the results depend on the processing

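In every alternative run, limma called 0 members for CP25 against vehicle at 0 h, at 2 h and for the difference of effects. Over all genes it called 0, 1 and 0. The authors' p-values called 0 at 2 h. With the replicate block the calls stayed at 0, 1 and 0, and 18 pairs of members passed. Leaving out 1 library gave 1 to 4 genes at 0 h, 1 to 7 at 2 h, 0 to 3 for the difference of effects, and 18 to 19 pairs. The call of JUND against ATF3 was lost without replicate 1 of any group, or replicate 3 of CP25 at 0 h, vehicle at 2 h or vehicle at 0 h. Members with differences near 0 changed sign: IER3 at 0 h was 0.013 with median centring and 0.028 with quantile normalization, against -0.00111. Leaving out 1 library gave, at 0 h, -0.31 to 0.17 for ATF3, -0.058 to 0.079 for IER2, -0.16 to 0.095 for IER3, -0.043 to 0.24 for JUN, -0.17 to 0.064 for JUNB and -0.056 to 0.14 for JUND. At 2 h it gave -0.49 to 0.18 for ATF3, -0.13 to 0.19 for IER2, -0.016 to 0.29 for IER3, -0.32 to -0.012 for IER5, -0.26 to 0.32 for JUN and -0.11 to 0.20 for JUND. For the difference of effects it gave -0.42 to 0.26 for ATF3, -0.13 to 0.18 for IER2, -0.014 to 0.32 for IER3, -0.37 to -0.063 for IER5, -0.36 to 0.22 for JUN and -0.17 to 0.15 for JUND. The change between the times of JUND minus that of IER3 ranged from -0.035 to 0.14. FOS and FOSL1 rest on too few fragments to give a direction. The cause of these changes was not tested.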
